A study of Mus musculus with 6 samples.

Results

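A set of 10 genes of the smooth muscle contractile apparatus, the genes by which peritubular myoid cells are usually recognised in the testis, were followed in jsd and SCARKO-jsd mice. They are Acta2, Actg2, Myh11, Myl9, Mylk, Tagln, Cnn1, Smtn, Lmod1 and Des. They were chosen by name, with earlier results of these data known. Every probe set that the array's annotation assigns to one of these symbols alone was taken, which gave 16 probe sets of the 45101 in the deposited table, for 10 of the 18193 genes with a symbol. RNA of whole testes from mice aged 12 weeks was measured on 6 Affymetrix arrays, 3 labelled jsd and 3 labelled SCARKO-jsd. Both groups carry jsd (juvenile spermatogonial depletion), a mutation of Utp14b under which adult tubules hold Sertoli cells and early germ cells while the later stages are scarce. To this the SCARKO-jsd group adds a conditional knockout in Sertoli cells. The Cre driver, the strain and the mouse behind each RNA are not given by the labels. The p-values here set a difference against the scatter among these samples, and whether that scatter is between animals is not known. The labels also write the second genotype as SCARCO-jsd and SCARO-jsd. The comparison asks whether the transcripts of the contractile wall differ when a gene is lost in the neighbouring Sertoli cells.

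Peritubular myoid cells form the thin muscular wall of the seminiferous tubule, lie against the basement membrane that they share with Sertoli cells, and contract in waves that move fluid and sperm along the tubule. As in other smooth muscle, calcium activates myosin light chain kinase, the kinase phosphorylates the regulatory light chain, and myosin then pulls on actin filaments whose access is tuned by calponin and related proteins. The serum response factor and its partners of the myocardin family drive many of these genes through a short element called the CArG box. Vascular smooth muscle and pericytes use the same genes, so in RNA of a whole testis they add to the same signal, and fewer cells of a type cannot be told apart from less RNA per cell.

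The CArG box was looked for in the promoters because it is the control element that these genes are known to share. RefSeq's GRCm38.p6 promoter table held 7 of the 10 genes (Acta2, Cnn1, Des, Lmod1, Myl9, Mylk and Smtn), and the 250 bases before each annotated start were searched. The box is CC, then 6 bases that are each A or T, then GG, which reads alike on both strands. An exact box stood before Myl9, and boxes with 1 of the 6 core bases off stood before Myl9 and Acta2. Over all 32851 promoters of that length, 1.47% held an exact box and 8.59% an exact box or one with 1 core base off, so 1 and 2 of 7 are small numbers read against those shares. A match here is a match of letters and not a site shown to be bound. The stretches follow 5′ to 3′ on the strand of the gene, with the box in capitals. They are Myl9 (chr2:156775283-156775332, plus strand, box 161 to 152 bases before the start, exact), Myl9 (chr2:156775345-156775394, plus strand, 99 to 90 bases before it, 1 base off), Acta2 (chr19:34255428-34255477, minus strand, 84 to 75 bases before it, 1 base off) and Acta2 (chr19:34255378-34255427, minus strand, 34 to 25 bases before it, 1 base off).
Myl9, exact box: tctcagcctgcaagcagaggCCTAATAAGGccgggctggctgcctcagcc
Myl9, 1 base off: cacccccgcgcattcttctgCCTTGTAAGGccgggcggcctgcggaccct
Acta2, distal: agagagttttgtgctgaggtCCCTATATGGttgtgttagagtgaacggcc
Acta2, proximal: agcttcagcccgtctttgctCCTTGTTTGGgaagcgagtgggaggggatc

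The deposited values are log2 expression after RMA, which brings arrays toward a shared distribution, although the median over probe sets was 6.26 on SCARKO-jsd 2 and 6.40 to 6.41 on the remaining 5. Each difference is SCARKO-jsd minus jsd in log2 units. For each gene the probe set with the highest mean was tested with limma among the 10916 genes above the dim limit of 6.64, and a call is a Benjamini-Hochberg adjusted p under 0.05. Values are given in the order of arrays 1, 2 and 3 of each group. The array SCARKO-jsd 2 was unlike the rest. Across genes, which are not independent replicates, its highest correlation with another array was 0.973, against up to 0.994 for the rest, and its 3′ probe sets exceeded the 5′ ones by 1.66 for beta-actin, against 0.70 to 0.98 elsewhere. For Gapdh that excess was 0.64, against -0.28 to -0.10, and for the pyruvate carboxylase control 3.45, against 2.82 to 3.155. For the transferrin receptor control it was 1.78, within the 1.68 to 2.10 of the remaining arrays. Without SCARKO-jsd 2 the median difference over all genes tested was 0.003 in place of 0.043. Values without it are given for several lists and for genes in which it was extreme. The tissue label was borne out by the Leydig cell enzyme gene Cyp17a1 (14.61 in jsd) and the Sertoli cell factor gene Sox9 (9.51), and 13 measured genes of epididymal epithelium were all dim.

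No contractile gene differed between the genotypes past the threshold. Of the 10 genes, all above the dim limit, 0 were called by limma and 0 reached an unadjusted p under 0.05, whereas 3.57% of all genes tested were called and 18% reached that unadjusted p. The differences ran from -0.22 for Myl9 to 0.20 for Tagln, 5 of them above and 5 below 0, with a median of -0.0043 beside 0.043 over all genes tested. Without SCARKO-jsd 2 the median of the 10 was -0.056, with 3 differences above and 7 below 0. Over all genes tested, 6526 differences were above and 4390 below 0, or 5544 and 5372 without SCARKO-jsd 2. With all arrays the median size of the 10 differences without regard to sign was 0.080, beside 0.13 over all genes tested. The 95% intervals of the differences lay between -0.48 and 0.41 for the 10 genes, so changes larger than 1.40-fold down or 1.33-fold up lay outside every interval. An interval wholly within 0.5 of 0, a bound chosen after the values were seen, was found for 10 of 10 contractile genes and for 67.3% of all genes tested. The standard errors, 0.087 to 0.14, were like those of other genes, with a median of 0.106 beside 0.113. With any 1 array left out, 0 of the 10 genes were called by limma and at most 2 reached an unadjusted p under 0.05. Those 2 came without SCARKO-jsd 2, in a fit that called 768 of all genes tested. The share of all genes at that unadjusted p was not counted in that fit, so the 2 have no background beside them.

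**Figure D1:**
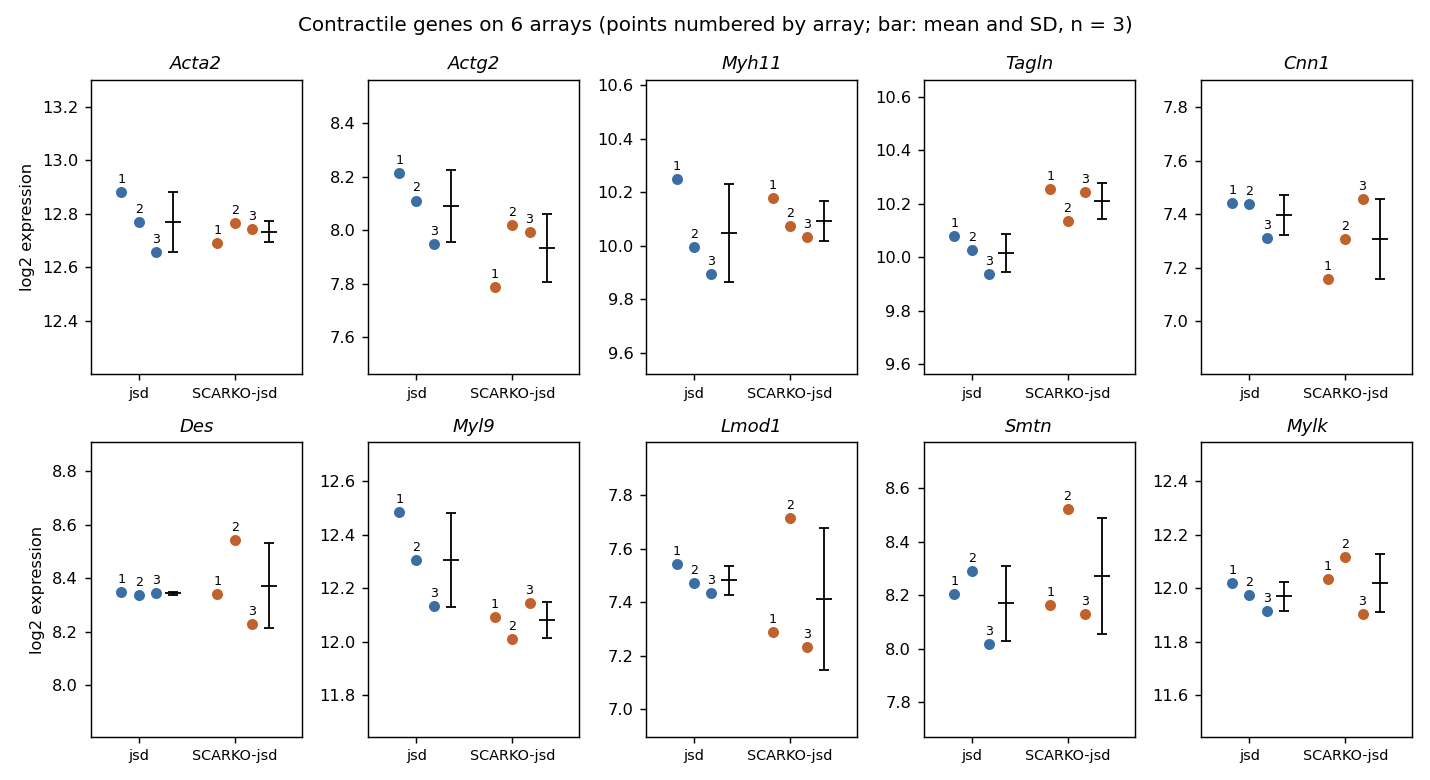
Log2 expression of the 10 contractile genes (brightest probe set of each) on the 3 jsd arrays and the 3 SCARKO-jsd arrays, numbered as labelled, each panel spanning the same height; the bar gives the mean and SD. The groups overlap in every panel but that of Tagln, and SCARKO-jsd 2 is the highest array for Des, Lmod1, Smtn and Mylk.

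Neither actin of smooth muscle differed between the groups past the threshold. Acta2 encodes alpha smooth muscle actin, the standard marker of the myoid layer. It read 12.88, 12.77 and 12.66 on the jsd arrays against 12.69, 12.77 and 12.74 on the SCARKO-jsd arrays. All SCARKO-jsd arrays thus fell inside the range of the jsd arrays. The difference was -0.036 ± 0.092 (SE), with a 95% interval of -0.25 to 0.18 and a limma Benjamini-Hochberg adjusted p of 0.869. The probe set used, 1416454_s_at, carries the suffix that the manufacturer gives to probes matching several transcripts, and actin coding sequences are nearly identical, so the part of other actins in this signal was not tested.

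The other Acta2 probe sets were dim. 1444105_at had means of 5.595 in jsd and 5.32 in SCARKO-jsd testes, and 1456658_at had means of 4.67 and 4.65. Neither passed when every probe set was tested by itself (limma, adjusted p = 0.685 and 0.964), a fit in which 0.28% of 45037 probe sets were called. For 1444105_at the lowest array was SCARKO-jsd 2, at 4.97, against 5.65 and 5.34 in the other arrays of its group.

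Actg2 encodes gamma smooth muscle actin, the form typical of gut and other visceral muscle. It read 8.21, 8.11 and 7.95 on the jsd arrays against 7.79, 8.02 and 7.99 on the SCARKO-jsd arrays. SCARKO-jsd 1 was the lowest array and the other SCARKO-jsd arrays lay between jsd 2 and jsd 3. The difference was -0.16 ± 0.11 (SE), with an interval of -0.41 to 0.096 and a limma adjusted p of 0.501.

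Of the myosin motor, neither the heavy chain nor the light chain passed the threshold, though the light chain had the largest difference of the 10 genes. Myh11, the heavy chain that defines differentiated smooth muscle, read 10.25, 10.00 and 9.90 on the jsd arrays against 10.18, 10.07 and 10.03 on the SCARKO-jsd arrays. All SCARKO-jsd arrays lay within the jsd range, and the difference was 0.047 ± 0.11 (SE; limma adjusted p = 0.861). Its other probe set, 1418122_at, was dim, at 4.76 in jsd and 4.68 in SCARKO-jsd testes.

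Myl9 encodes the regulatory light chain that the kinase phosphorylates. It read 12.48, 12.31 and 12.13 on the jsd arrays against 12.09, 12.01 and 12.14 on the SCARKO-jsd arrays. The jsd arrays were spread over 0.35 and the lowest of them, jsd 3, lay just under the highest SCARKO-jsd array. The difference was -0.22 ± 0.11 (SE), 1.17-fold, with an interval of -0.48 to 0.031, an unadjusted p of 0.0769 and a limma adjusted p of 0.337. It was -0.14 without jsd 1 and -0.31 without jsd 3, and it was not called in either case (limma adjusted p = 0.697 and 0.257).

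Mylk encodes myosin light chain kinase, in long and short forms, and from an internal promoter telokin, a small protein that holds the end of the kinase alone. Its brightest probe set, 1425506_at, read 12.02, 11.98 and 11.92 on the jsd arrays against 12.04, 12.12 and 11.91 on the SCARKO-jsd arrays. The SCARKO-jsd arrays spanned the whole jsd range. The difference was 0.050 ± 0.092 (SE), with an interval of -0.16 to 0.26 and a limma adjusted p of 0.817, and it was 0.00033 without SCARKO-jsd 2, the highest array.

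The 3 probe sets of Mylk, all above the dim limit, did not move together. The array annotation gives the same source transcript for each, and which form of the kinase each detects is not stated in the annotation. 1425505_at read 11.58, 11.68 and 11.47 on the jsd arrays against 11.76, 11.26 and 11.95 on the SCARKO-jsd arrays. Its lowest and highest values were thus both in SCARKO-jsd testes, and its SD of 0.35 there compares with 0.11 in jsd testes. The gap from 1425506_at to 1425505_at was 0.86 in SCARKO-jsd 2, -0.043 in SCARKO-jsd 3, and 0.28 to 0.45 in the other 4 arrays. The part of RNA quality in that gap, which was widest in the array with the largest 3′ excess for beta-actin, was not tested.

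The third Mylk probe set, 1425504_at, read 8.56, 8.59 and 8.60 in the jsd arrays and 8.52, 8.55 and 8.27 in the SCARKO-jsd arrays. The groups did not overlap, by a narrow margin at the nearest arrays, and SCARKO-jsd 3 was the only array that stood clearly lower. The difference was -0.14 ± 0.0996 (SE) with a limma adjusted p of 0.703 over all probe sets.

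**Figure D2:**
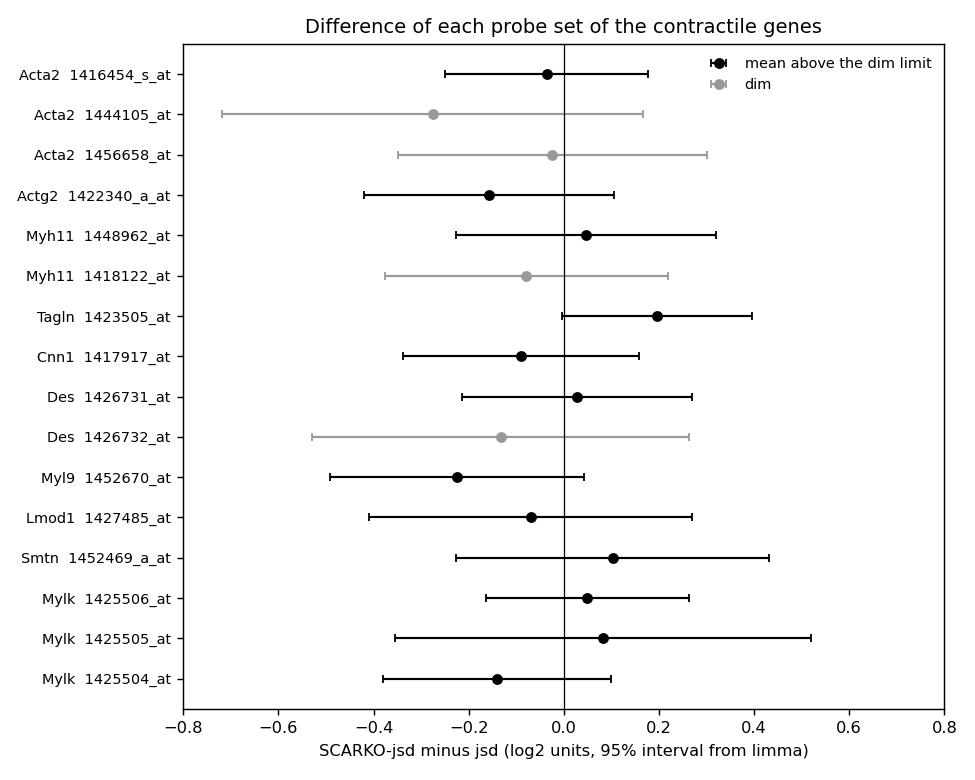
Difference between SCARKO-jsd and jsd testes for each of the 16 probe sets (log2 units), with the 95% interval of the limma fit over 45037 probe sets; black points are probe sets with a mean above the dim limit of 6.64 and grey points are dim. Every interval includes 0, and that of Tagln, from -0.0038 to 0.40, comes nearest to leaving it out.

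Among the proteins that sit on the actin filament, Tagln was the only gene of the 10 whose arrays did not overlap between the groups. Tagln encodes transgelin, or SM22 alpha, an actin-bundling protein of early and mature smooth muscle. It read 10.08, 10.03 and 9.94 on the jsd arrays against 10.26, 10.13 and 10.24 on the SCARKO-jsd arrays. Every SCARKO-jsd array was above every jsd array, narrowly at the nearest. Over all genes tested, 24.6% had arrays that did not overlap, so 1 of 10 is below the background. The difference was 0.20 ± 0.087 (SE), 1.15-fold, with an interval of -0.0058 to 0.40, an unadjusted p of 0.0554 and a limma adjusted p of 0.293. Across the alternatives it stayed between 0.16 and 0.24, and its adjusted p between 0.154 and 0.536.

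Cnn1 encodes calponin 1, which binds actin and slows the myosin cycle. It read 7.44, 7.44 and 7.31 on the jsd arrays against 7.16, 7.31 and 7.46 on the SCARKO-jsd arrays. The SCARKO-jsd arrays held both its lowest and its highest value, and the difference was -0.090 ± 0.10 (SE; limma adjusted p = 0.698).

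Smtn, which encodes smoothelin, an actin-binding protein of contractile smooth muscle, read 8.20, 8.29 and 8.02 on the jsd arrays against 8.17, 8.52 and 8.13 on the SCARKO-jsd arrays. Only SCARKO-jsd 2 lay above the jsd range. The difference of 0.10 ± 0.13 (SE; limma adjusted p = 0.733) became -0.022 without that array.

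Lmod1, which encodes leiomodin 1, a nucleator of actin filaments in smooth muscle, gave the most divided values. It read 7.54, 7.47 and 7.43 on the jsd arrays against 7.29, 7.72 and 7.23 on the SCARKO-jsd arrays. SCARKO-jsd 2 was the highest of the 6 arrays and the other 2 SCARKO-jsd arrays were the lowest. The difference was -0.070 ± 0.14 (SE; limma adjusted p = 0.828) with all arrays and -0.22 without SCARKO-jsd 2 (limma adjusted p = 0.183), in a fit that called 768 of all genes.

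Des encodes desmin, the intermediate filament that ties the contractile units of muscle cells together. It read 8.35, 8.34 and 8.34 on the jsd arrays against 8.34, 8.54 and 8.23 on the SCARKO-jsd arrays. The jsd arrays were almost identical and SCARKO-jsd 2 lay above and SCARKO-jsd 3 below them, with a difference of 0.028 ± 0.10 (SE; limma adjusted p = 0.915) that became -0.059 without SCARKO-jsd 2. A dim second probe set had means of 5.58 and 5.45.

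The arrays were also compared over the 10 genes at once. Each gene was set against its own mean over the 6 arrays. In jsd 3 all 10 genes lay below their own mean, with a median deviation of -0.072. In jsd 1, 7 genes lay above it, with a median of 0.092. In SCARKO-jsd 1 and 3 the medians were -0.059 and -0.044, and in SCARKO-jsd 2, where 8 genes lay above their mean, 0.018. Averaged over arrays, the median deviation was 0.014 ± 0.083 for jsd against -0.029 ± 0.041 for SCARKO-jsd (SD, n = 3), and an exact two-sided permutation test over the 6 arrays gave p = 0.6, where 0.1 is the smallest possible with 3 against 3.

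**Figure D3:**
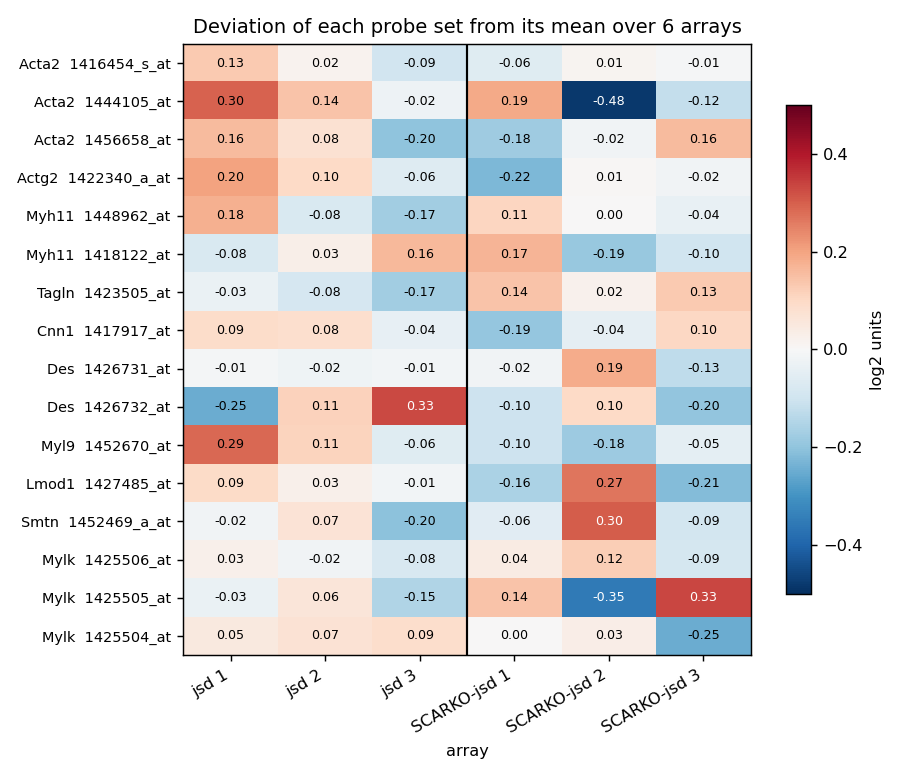
Deviation of each of the 16 probe sets from its own mean over the 6 arrays (log2 units, red above and blue below the mean), with jsd arrays to the left of the line and SCARKO-jsd arrays to the right. The bright probe sets of jsd 1 are mostly red and those of jsd 3 mostly blue, while SCARKO-jsd 2 holds the lowest value, -0.48 in a dim Acta2 probe set, beside 0.30 in Smtn.

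The genes followed the shared profile unevenly. The root-mean-square distance from the median profile over the 6 arrays was 0.024 for Acta2, 0.070 for Mylk, 0.087 for Actg2, 0.090 for Cnn1, 0.093 for Des, 0.096 for Myh11 and 0.12 for Myl9. It was 0.13 for Tagln and Lmod1 and 0.14 for Smtn. For Smtn, 45.3% of all genes tested lay nearer to the profile than it did, and for Acta2 0.082% did. Each of the 10 genes helped form the profile and the remaining genes did not. These shares are therefore a description and no test of whether a gene follows the profile. Among the 10340 other genes with at least as much spread as the profile, the nearest over the 6 arrays were Sidt2 (0.017), Fads2 (0.019), Psmd9 (0.020), Adcy5 (0.023) and Msn (0.023). The 10 contractile genes themselves were left out of that search.

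Ratios within an array remove whatever lifts all contractile genes of that array alike. Of the 45 ratios between pairs of the 10 genes, 10 (22.2%) had arrays that did not overlap between the groups. The ratios reuse the same 10 genes and are not separate results. The share among ratios of other genes was not counted, so this count has no background to be read against. The widest difference was that of Tagln over Myl9, chosen after its values were seen and therefore not tested. On the jsd arrays the log2 ratio was -2.41, -2.28 and -2.19, against -1.84, -1.88 and -1.90 on the SCARKO-jsd arrays. Its mean was higher by 0.42 in SCARKO-jsd testes, and the nearest arrays of the groups lay farther apart than the range within either group. Such a ratio shows unequal differences and not which of the genes differed.

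The wider contraction machinery likewise held no called gene. Of 31 tested genes for tropomyosins, caldesmon, phosphatase subunits, cytoplasmic actins and anchoring proteins, 0 rose, 0 fell and 31 did not pass (limma; 5 at an unadjusted p under 0.05), with a median of 0.064, or 0.039 without SCARKO-jsd 2. The smallest p belonged to Pdlim7, which encodes an actin-anchoring adaptor, at 0.41 ± 0.11 (SE; limma adjusted p = 0.0897). Ppp1r12b, a targeting subunit of myosin phosphatase, the enzyme that undoes the work of the kinase, stood at 0.36 ± 0.12 and Synm, which encodes a filament partner of desmin, at 0.37 ± 0.13 (limma adjusted p = 0.165 and 0.192). With the probe sets of a gene averaged these became 0.022 and 0.076 (limma adjusted p = 0.962 and 0.902). In the brightest probe set of all 3 genes every SCARKO-jsd array was above every jsd array, with SCARKO-jsd 2 the highest. The tropomyosin genes Tpm1 and Tpm2 stood at 0.082 and 0.086, Cald1 at -0.025 and Rock1 at 0.13. The lowest value of the list, -0.58 for the cytoplasmic actin gene Actb, came with 12.49 on SCARKO-jsd 2, against 14.16 to 14.30 on the other arrays, and it was -0.0047 without that array.

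Among transcription factors of smooth muscle genes, 0 of 11 tested were called with all arrays (limma; 1 at an unadjusted p under 0.05), with a median of 0.11, or 0.036 without SCARKO-jsd 2. Srf, the factor known to bind CArG boxes, read 9.41, 9.17 and 9.13 on the jsd arrays against 8.86, 9.19 and 8.87 on the SCARKO-jsd arrays. SCARKO-jsd 1 and 3 lay below every jsd array and SCARKO-jsd 2 among them, with a difference of -0.27 ± 0.13 (SE; limma adjusted p = 0.324), or -0.11 with its probe sets averaged (0.694). Its partners Mrtfa and Mrtfb stood at 0.12 and -0.048, and Myocd was dim.

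Tbx18, a T-box factor of mural and other mesenchymal precursors, had the largest difference of that list. It read 7.79, 7.63 and 7.38 on the jsd arrays against 8.30, 8.87 and 8.08 on the SCARKO-jsd arrays, so every SCARKO-jsd array was above every jsd array. The difference was 0.82 ± 0.21 (SE; limma adjusted p = 0.0816). Without SCARKO-jsd 2, the highest array, it was 0.59 and was called (limma adjusted p = 0.0392).

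Signals that set the tone of myoid cells also held no called gene among 14 tested (limma, with 4 at an unadjusted p under 0.05). Their median was 0.16, with 12 of 14 differences above 0, beside 6526 of the 10916 genes tested. Without SCARKO-jsd 2 the median was 0.077, with 10 of 14 above 0, beside 5544 of the 10916. Of the 12 dim genes of that list, Adm, which encodes the vasodilator adrenomedullin, passed with no filter on dim genes, at 0.83 (limma adjusted p = 0.0423), but not with every probe set tested by itself (0.151). Kcnma1, which encodes the pore of the large calcium-activated potassium channel, stood at 0.69 ± 0.23 (SE; limma adjusted p = 0.174), and it was called without jsd 3, at 0.97 (limma adjusted p = 0.0212). Its other bright probe set gave 0.15, and the mean of its probe sets 0.26. Npr2, a receptor for C-type natriuretic peptide, stood at 0.34 ± 0.12. Ece1, which encodes an enzyme that makes endothelin, was at 0.38 ± 0.13 and turned to -0.53 with a further quantile normalization, which changed the probe set used. The receptor gene for oxytocin, Oxtr, stood at 0.15 and that for endothelin, Ednrb, at 0.18, while Edn1 stood at -0.49 ± 0.25. SCARKO-jsd 2 was the lowest array for Edn1 and the highest for Ednrb. Without it Edn1 stood at -0.21 and Ednrb at -0.053 (limma adjusted p = 0.496 and 0.920).

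**Figure D4:**
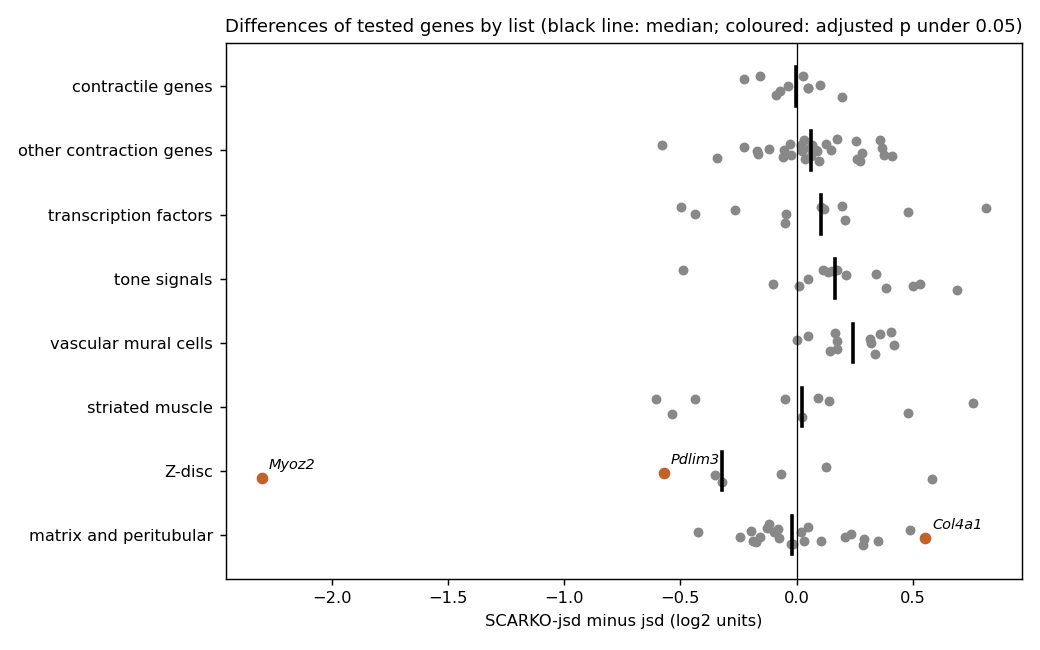
Difference between SCARKO-jsd and jsd testes (log2 units) for the tested genes of 8 lists, a point per gene, with the median of each list as a black line and called genes (limma adjusted p under 0.05) in colour and named. The 10 contractile genes lie between -0.22 and 0.20, and called genes are found in the Z-disc list and the matrix list.

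Other cells that use the contractile genes were read through their own markers. Of 12 tested markers of pericytes and vascular smooth muscle, 0 were called (limma, with 1 at an unadjusted p under 0.05), with a median of 0.24. All 12 had a difference above 0, beside 6526 of the 10916 genes tested. Rgs5, a pericyte gene, stood at 0.16 ± 0.088 (SE). On this list SCARKO-jsd 2 had a median deviation of 0.51, against -0.29 to -0.015 in the other 5 arrays. Without that array the median was 0.11, and 9 of 12 differences were above 0, beside 5544 of the 10916 genes tested. The summed log2 level of the list's 15 measured genes ran from 108.9 to 111.4 in jsd and from 111.0 to 118.5 in SCARKO-jsd testes. SCARKO-jsd 2 was also the highest array for Des, Lmod1, Smtn and Mylk, and the part of mural cells in those values was not tested.

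Of 27 striated muscle genes measured, 18 were dim, among them the defining genes Acta1, Ckm, Myh1, Myh4 and Ttn. Neb, which encodes the thin filament protein nebulin, was dim by its mean over both groups and was singled out after its values were seen. It read 6.13, 6.05 and 5.70 on the jsd arrays against 7.21, 7.66 and 6.90 on the SCARKO-jsd arrays, so its groups did not overlap. The difference of 1.30 ± 0.20 (SE) passed with no filter on dim genes (limma adjusted p = 0.0187) and did not with every probe set tested by itself (0.0939). Bright genes of the list included Tnni3, Tnnt2, Myh7 and Tnni1, with jsd means of 9.94, 9.43, 9.25 and 9.14. The summed log2 level of the 27 ran from 164.5 to 165.5 in jsd and from 162.6 to 169.8 in SCARKO-jsd testes. Of the 9 tested, 0 were called with all arrays (limma; 2 at an unadjusted p under 0.05). Tnni1 and Actn3 stood at -0.54 and -0.61 (limma adjusted p = 0.0629 and 0.0681). Without SCARKO-jsd 2, in a fit that called 768 of all genes, they were called, at -0.58 and -0.75 (limma adjusted p = 0.0356 and 0.0054).

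The muscle genes called with all arrays were Z-disc genes outside the contractile set. They were 2 of 7 tested, beside 3.57% of all genes tested, on a list drawn up with earlier results known. Myoz2, which encodes a calcineurin-binding Z-disc protein and was picked because an earlier reading of these data showed its fall, read 9.77, 9.60 and 10.33 on the jsd arrays against 7.05, 7.997 and 7.74 on the SCARKO-jsd arrays. It fell by 2.30 ± 0.27 (SE; limma adjusted p = 0.0065), which was 4.93-fold. Pdlim3, an alpha-actinin-binding protein of the Z-disc, fell by 0.57 ± 0.089 (limma adjusted p = 0.0167), with group means of 9.55 ± 0.060 and 8.98 ± 0.092 (SD, n = 3). Leaving out the first or second jsd array or SCARKO-jsd 3 ended the call (limma adjusted p = 0.0968, 0.0969 and 0.0813). With every probe set tested by itself, neither was called (limma adjusted p = 0.0503 for Myoz2 and 0.0743 for Pdlim3), and median centring ended the call of Pdlim3 (0.0671). The other 5 of the 7 tested Z-disc genes did not pass with all arrays, and Ldb3, Tcap and Csrp3 were dim. Of the 7 differences 2 were above 0, those of Cryab at 0.58 ± 0.21 (SE; limma adjusted p = 0.208) and Myoz1 at 0.13. Without SCARKO-jsd 2, in a fit that called 768 of all genes, Pdlim5 was also called, at -0.46 (limma adjusted p = 0.0252). The median of the 7 genes was -0.32 with all arrays and -0.34 without SCARKO-jsd 2.

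In the matrix and peritubular list 1 of 24 tested genes rose and 23 did not pass, with a median of -0.020, or -0.083 without SCARKO-jsd 2. Col4a1, a basement membrane collagen, rose by 0.55 ± 0.10 (SE; limma adjusted p = 0.0317), and leaving out any array but SCARKO-jsd 2 ended the call (adjusted p at most 0.121), as did testing every probe set by itself (0.118), averaging probe sets (0.115) and median centring (0.0603). Among 9 Leydig cell genes 0 were called by limma, with 0 at an unadjusted p under 0.05, and among 15 Sertoli cell genes Wt1 fell by 0.48 and 14 did not pass. Among 10 endothelial genes Kdr fell by 0.79 and 9 did not pass. The list as a whole leaned the other way, with 8 differences above and 2 below 0 and a median of 0.20. Without SCARKO-jsd 2 these were 6 and 4, with a median of 0.028. Vwf, the highest, stood at 0.53 ± 0.16 (SE; limma adjusted p = 0.142). Leaving out any array but SCARKO-jsd 2 ended the calls of Wt1 and Kdr (adjusted p at most 0.187 and 0.175 by limma). So did testing every probe set by itself (0.135 and 0.166) and median centring (0.150 and 0.0905), and a replicate block ended that of Wt1 (0.0657). Without SCARKO-jsd 2, Inha of the Sertoli list was also called, at 0.35, and Robo4 of the endothelial list, at -0.73 (limma adjusted p = 0.0493 and 0.0216). Among 8 blood and macrophage genes Alas2, which encodes an enzyme of haem synthesis in red cell precursors, fell by 1.21 ± 0.099 (SE; limma adjusted p = 0.0016) and 7 did not pass. It was called under each of its 15 alternatives. Hba-a1 and Slc4a1, red cell genes of the same list, were dim. Their means were 4.33 and 4.63 in jsd against 4.38 and 4.73 in SCARKO-jsd testes. Of 4 tested mesothelial genes Wt1, which is also on the Sertoli list, fell and 3 did not pass. Among those 3, Upk3b stood at -0.47 with all arrays. It was called without SCARKO-jsd 2, at -0.51 (limma adjusted p = 0.0478), and with arrayWeights (0.0204).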

How the data were processed

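Total RNA of testes was made into biotinylated cRNA for Affymetrix arrays, per the labels' protocols. The deposited log2 values came from RMA and the package affy, per the submitters' processing notes, with versions not given in the sources used here. Values ran from 2.58 to 14.84 with 0 missing. RMA brings arrays toward a shared distribution, so a shift of most transcripts one way cannot be read from them.

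Of 45101 probe sets, 64 were controls, 932 had several symbols and named no gene, and 34945 others had 1. List genes under older symbols were matched through RefSeq synonyms. The brightest probe set stood for each of 18193 genes, and the lowest 40% were left out. limma 3.58.1 in R 4.3.3 (lmFit, eBayes) tested genotype, two-sided, with Benjamini-Hochberg adjustment. A second fit took all 45037 non-control probe sets. The gene fit was tested on simulated data. Named genes are the 10 members, called genes, up to 3 of each list with the smallest p, Myoz2, and the 5 nearest profiles. Others named were chosen after their values were seen. The members and the 13 other lists were chosen with earlier results of these data known. The gene knocked out is not reported here. The number of arrays limits the precision. Figures used matplotlib 3.10.9.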

Additional observations from a re-analysis of the deposited data

How the results depend on the processing

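None of the 10 contractile genes was called by limma under any of 15 alternatives to the fit, with 146 gene values in all and a lowest adjusted p of 0.154, nor at adjusted p thresholds of 0.01 and 0.1. Of those 146 values 134 kept their sign. The 12 that turned were all within 0.059 of 0. Without 1 array, Acta2 ran from -0.093 to 0.020, Myh11 from -0.028 to 0.15, Des from -0.059 to 0.098, Lmod1 from -0.22 to 0.020 and Smtn from -0.022 to 0.17. Median centring gave 0.0073 for Acta2, the mean of probe sets gave -0.016 for Myh11, -0.053 for Des and -0.0031 for Mylk, and arrayWeights gave -0.036 for Des, -0.036 for Smtn and -0.0017 for Mylk. Ece1 turned to -0.17 when probe sets were averaged and to -0.53 with a further quantile normalization, and Upk1b, a mesothelial gene at -0.094, ran from -0.16 to 0.029 without 1 array. The median deviation of the contractile genes had an SD between replicates of 0.083 in jsd and 0.041 in SCARKO-jsd testes. Their median difference, -0.0043 with all arrays, ran from -0.061 to 0.049 without 1 array. The cause of these changes was not tested.

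The count of all called genes, 390, was 126 with every probe set by itself, 262 with median centring, 860 with arrayWeights, 728 and 111 at thresholds of 0.1 and 0.01, and 78 (without jsd 1) to 768 (without SCARKO-jsd 2). Same-numbered arrays were not paired, as their deviations correlated at -0.21, 0.23 and 0.24. A replicate block gave 397 calls and 0 contractile genes. With 3 arrays a group, a difference smaller than the distance from the middle to the end of its interval could not be told from 0. A call asked for at least as much.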
